A study of Mus musculus with 9 samples.

Results

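The 10 genes described here encode the isocitrate dehydrogenases (Idh1, Idh2, Idh3a, Idh3b, Idh3g), the malic enzymes (Me1, Me2, Me3), pyruvate carboxylase (Pc) and glucose-6-phosphate dehydrogenase (G6pdx). They were chosen by name and mapped to Ensembl identifiers, with Pc matched to the identifier named Pcx in GENCODE M21 through a RefSeq synonym. All 10 were among the 22048 genes of the count table and all 10 passed the expression filter, which left 9739 genes. The islets came from 9 ICR mice, an outbred strain, and had been cultured for 3 days in RPMI medium with serum at 11.8, 20 or 35 mM glucose. The series calls these concentrations normoglycemic, hyperglycemic and extreme hyperglycemic, and each had 3 libraries. No genetic change and no other agent is given, and although the titles, characteristics and design put the highest concentration at 35 mM, the treatment protocol puts it at 25 mM. The labels name no osmotic control and do not say whether each library came from its own mouse, so the p-values reflect the spread among these libraries alone, which may be technical.

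Isocitrate dehydrogenases turn isocitrate into alpha-ketoglutarate. The IDH3 complex of the mitochondrial matrix, made of a catalytic alpha subunit with beta and gamma subunits, makes NADH for the respiratory chain, whereas IDH1 in the cytosol and IDH2 in mitochondria make NADPH. Beta cells have little lactate dehydrogenase and much pyruvate carboxylase, so that part of the pyruvate enters the citric acid cycle as oxaloacetate. Its carbon can leave mitochondria as malate, citrate or isocitrate. The malic enzymes and IDH1 then regenerate pyruvate or alpha-ketoglutarate with NADPH, a cycling that has been tied to insulin secretion, and G6PDX supplies cytosolic NADPH at the entry of the pentose phosphate pathway.

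Of the 10 genes, 1 passed the test, at 35 against 11.8 mM, where 0.863% of all 9739 genes tested were called. Idh2 fell at 35 mM glucose, from 39.1 ± 7.12 CPM at 11.8 mM to 23.0 ± 1.35 CPM at 35 mM (CPM, the count scaled to a common library size; mean ± SD, n = 3 libraries each). The call was lost in 8 of 21 alternative fits, each of which left out a library or used a single sub-library of each sample. The other 9 genes did not pass in any comparison, among them the other isocitrate dehydrogenases, all malic enzymes, Pc and G6pdx. Of these 9, G6pdx had the smallest adjusted p, at 35 against 11.8 mM, but at 0.465 by edgeR it was far from the threshold. Its direction was opposite to that of Idh2.

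Depth ranged from 3228648 to 4559561 gene counts a library, with 13366 to 13923 genes detected. Islet cells dominated: summed markers of beta cells (Ins1, Ins2, Iapp, Slc2a2, Nkx6-1, Ucn3) came to 448000 to 650930 CPM over the 9 libraries. Acinar markers came to 3647 to 12803 CPM at 11.8 mM, 7143 to 12357 at 20 mM and 6692 to 10435 at 35 mM. No marker of the 8 lists was at 0 in all libraries. A sub-library of 11.8 mM replicate 1 had a low Ins1 share (11.8%, against 26.3% elsewhere in that sample), and a sub-library of 35 mM replicate 1 had a low Ins2 share (10.6%, against 29.0%). In bulk islets, fewer cells of a type and less RNA per cell cannot be told apart.

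Of the 10 genes, 8 had an entry in the RefSeq table of promoters (build GRCm38.p6), with 11 start sites in all. Idh3a and Me2 had none. The 250 bases before each start were searched on both strands for the E-box CACGTG, the core of the element recognized by the glucose-responsive factor ChREBP, for the antioxidant response element core TGACNNNGC, bound by NRF2, and for the GC box GGGCGG. The E-box was found in 1 of the 11 windows, against 6.02% of all 32851 windows, and that window belongs to Pc. The antioxidant core was found in 2 windows, those of Idh3g and G6pdx, against 10.2% of all, and the GC box in 6, against 32.7%. The Idh2 window held 2 GC boxes and neither other motif. A match is a description of letters, not of a bound site. The sequences of Idh2, as the gene that fell, and of Pc, as the gene whose window holds the E-box, are shown 5′ to 3′ on the gene's strand, with motif matches in capitals. For Idh2 the 42 bases nearest the RefSeq start, which hold both GC boxes, lie in a GENCODE exon and are left out.
Idh2, chr7:80115393-80115600, minus strand: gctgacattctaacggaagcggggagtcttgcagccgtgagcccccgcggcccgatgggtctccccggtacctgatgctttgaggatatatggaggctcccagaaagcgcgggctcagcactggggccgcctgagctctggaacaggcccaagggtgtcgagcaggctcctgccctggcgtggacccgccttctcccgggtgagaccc
Pc, chr19:4510222-4510471, plus strand: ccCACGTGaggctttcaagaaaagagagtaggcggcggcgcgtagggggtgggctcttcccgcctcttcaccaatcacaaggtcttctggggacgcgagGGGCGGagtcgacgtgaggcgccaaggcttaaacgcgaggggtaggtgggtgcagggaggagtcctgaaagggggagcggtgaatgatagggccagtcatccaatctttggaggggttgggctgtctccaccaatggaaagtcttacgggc

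Idh2 (ENSMUSG00000030541, chromosome 7, 80094846 to 80115392, minus strand, GRCm38) encodes the mitochondrial NADP-dependent isocitrate dehydrogenase. None of its exons overlaps another GENCODE M21 gene. In the 11.8 mM libraries it stood at 30.9, 42.4 and 44.0 CPM (replicates 1, 2 and 3). In the 20 mM libraries it stood at 23.1, 28.3 and 30.5 CPM. In the 35 mM libraries it stood at 21.5, 24.1 and 23.3 CPM. All 3 libraries at 35 mM and all 3 at 20 mM lay below the lowest library at 11.8 mM, although the highest at 20 mM was close to it, and the ranges at 20 and 35 mM overlapped. These values rest on 116 to 183 counts a library at 11.8 mM, 75 to 112 at 20 mM and 80 to 83 at 35 mM. Over all genes tested, libraries did not overlap, in either direction, for 14.9% at 35 mM and 12.8% at 20 mM, each against 11.8 mM.

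Between 35 and 11.8 mM the log2 fold change of Idh2 was -0.77 ± 0.18 (SE; 95% interval -1.13 to -0.41; adjusted p = 0.0228 by the quasi-likelihood test of edgeR, with Benjamini-Hochberg adjustment over 9739 genes), a level 0.587 times that at 11.8 mM. In that comparison 84 genes, 0.863% of those tested, were called. Idh2 ranked 59 by p. Between 20 and 11.8 mM the log2 fold change was -0.52 ± 0.17 (95% interval -0.87 to -0.16), which did not pass (adjusted p = 0.349 by edgeR). Between 35 and 20 mM it was -0.25 ± 0.18 (95% interval -0.62 to 0.12; adjusted p = 0.932 by edgeR). In order of mean level the concentrations stood 11.8, 20 and 35 mM, of which the neighbours did not differ by the test. A test for any difference among the 3 concentrations gave Idh2 an adjusted p of 0.0583 by edgeR, and 59 genes (0.606%) but 0 of the 10 were called by it, with 0 of the 10 by DESeq2 and 1, Idh2, at an unadjusted p under 0.05 by edgeR, against 9.05% of all genes. Of 20 alternatives of this test, 3 called Idh2 and 17 did not. The adjusted p by edgeR was 0.0115 without 11.8 mM replicate 1, the lowest of its group. It was 0.0107 without the expression filter and 0.0447 with a filter of 10 CPM in 3 libraries. Without 11.8 mM replicate 2 or 3 it was 0.218 or 0.295, and without a library at 35 mM it was 0.123 to 0.190. With a single sub-library of each sample it was 0.174 to 0.881.

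**Figure D1:**
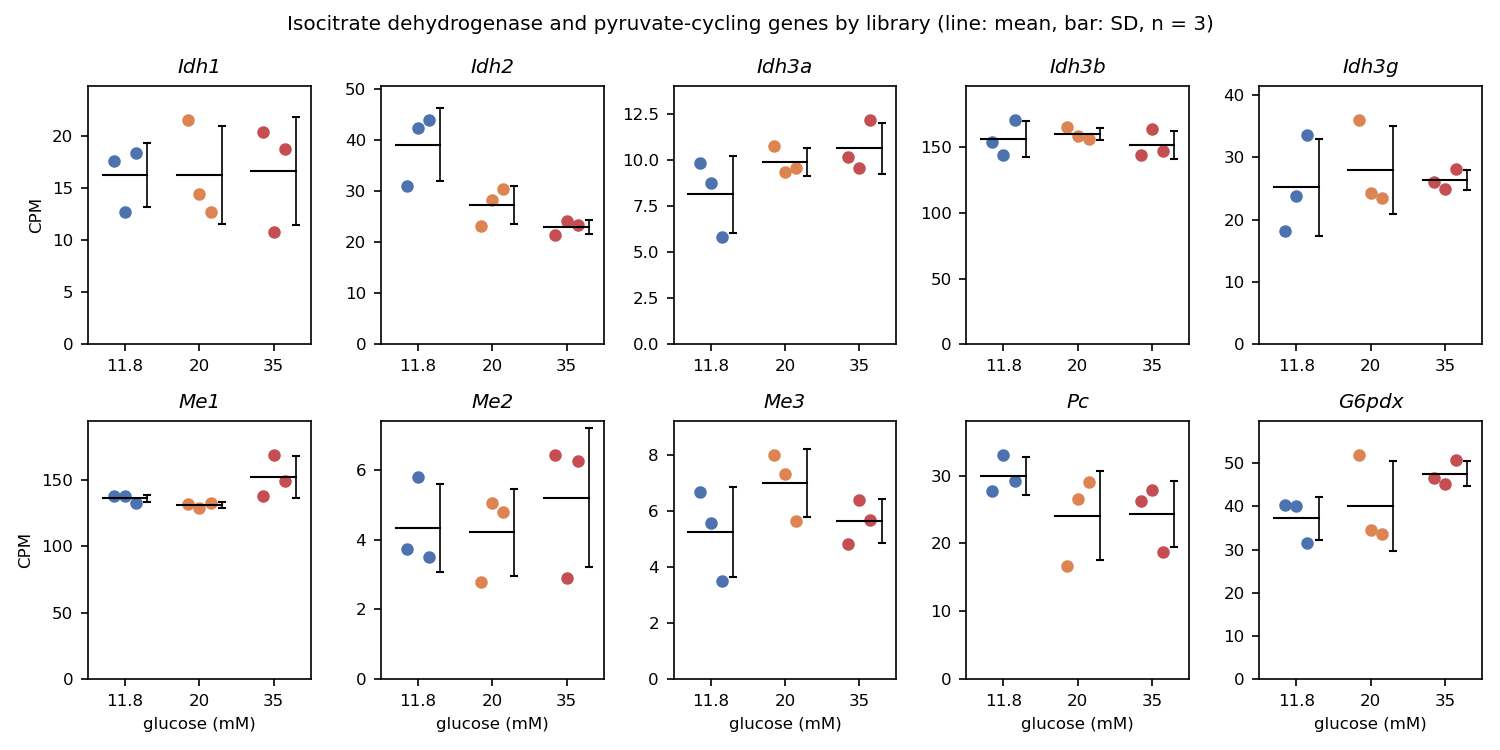
Normalized level in CPM (vertical axis, from 0, with its own scale for each gene) of the 10 genes at 11.8, 20 and 35 mM glucose (horizontal axis). Points are libraries in the order of their replicate numbers, lines are means and bars are SD (n = 3). Idh2 is highest in all 3 libraries at 11.8 mM, at 30.9 to 44.0 CPM, and lies at 21.5 to 24.1 CPM at 35 mM.

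The sign of the Idh2 difference at 35 mM held in each of the 21 alternatives run, but the call did not. It was lost when 11.8 mM replicate 2 or 3 or any of the 3 libraries at 35 mM was left out (log2 fold changes -0.80 to -0.68, adjusted p = 0.0752 to 0.158 by edgeR). Each sample had been split into 3 sub-libraries with their own barcodes. With only sub-library 1, 2 or 3 of each sample, the log2 fold changes were -0.89, -0.47 and -0.96, and none of these passed (adjusted p = 0.227, 0.705 and 0.0797 by edgeR). The value from sub-library 2 was smaller than that from all counts by over 1.5 times. The sub-library counts of Idh2 differed by about as much as counting noise gives, with a chi-square statistic of 17.5 on 18 degrees of freedom summed over samples. Without the sub-libraries with a low insulin share the log2 fold change was -0.80 (adjusted p = 0.0244 by edgeR), and with the summed level of acinar markers as a covariate -0.76 (adjusted p = 0.0427 by edgeR).

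**Figure D2:**
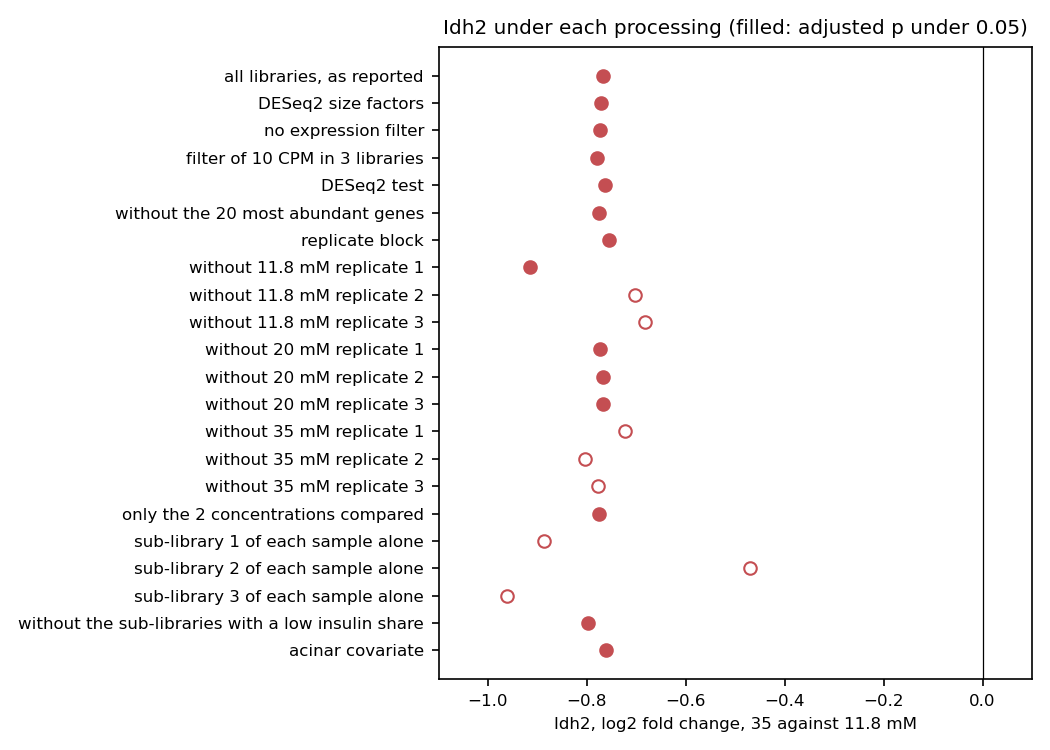
Log2 fold change of Idh2 between 35 and 11.8 mM glucose (horizontal axis) under each way of processing the counts (vertical axis). Filled points had an adjusted p under 0.05 and open points did not, and all 22 values lie between -0.96 and -0.47.

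Among the cell type markers, 2 rose at 35 mM against 11.8 mM. Iapp, a hormone secreted with insulin by beta cells, rose by 0.63 ± 0.13 on the log2 scale (adjusted p = 0.00865 by edgeR). Ttr, transthyretin, from the list of alpha cell markers, had 0.67 ± 0.13 at 35 mM and 0.60 ± 0.13 at 20 mM (adjusted p = 0.00527 and 0.0489 by edgeR). No marker of the lists for cells other than endocrine cells was called, and 9 of 13 acinar markers tested were positive at 35 mM (median 0.08). At 20 against 11.8 mM all 13 acinar markers were positive (median 0.39), and at 35 against 20 mM all 13 were negative (median -0.38). Of 5 duct markers tested at 35 mM, 2 were positive and 3 negative (median -0.11). Summed duct markers came to 167 to 261 CPM at 11.8 mM, 202 to 265 at 20 mM and 265 to 277 at 35 mM. The duct sums at 11.8 and 35 mM thus did not overlap. Krt7, of the duct list, stood at 158 ± 21.9 CPM at 11.8 mM and 215 ± 2.81 CPM at 35 mM (adjusted p = 0.151 by edgeR). Of 11 macrophage and immune markers tested at 35 mM, 9 had a negative log2 fold change (median -0.44). Among the 11, 4 had an unadjusted p under 0.05 by edgeR, against 10.5% of all genes tested. All libraries at 35 mM lay below those at 11.8 mM for 4, while 14.9% of all genes did not overlap in either direction. At 20 mM all 11 macrophage and immune markers were negative (median -0.30). Their summed levels were 173 to 203 CPM at 11.8 mM, 145 to 182 at 20 mM, and 207, 121 and 154 in replicates 1, 2 and 3 at 35 mM. The sums at 11.8 and 35 mM overlapped through replicate 1 at 35 mM alone, and Cd74, a partner of MHC class II, varied most at 35 mM (28.1 ± 31.2 CPM, n = 3). Of 9 fibroblast and stellate markers, 7 were negative at 35 mM (median -0.33), with summed levels of 378 to 643, 287 to 439 and 260 to 495 CPM at 11.8, 20 and 35 mM, which overlapped. Both endothelial markers tested were negative (median -0.49). The part of these markers in the Idh2 difference was not tested.

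Idh1 encodes the cytosolic NADP-dependent isocitrate dehydrogenase. It stood at 17.6, 12.7 and 18.4 CPM at 11.8 mM, at 21.6, 14.4 and 12.7 CPM at 20 mM, and at 20.4, 10.7 and 18.7 CPM at 35 mM. The groups overlapped over most of their range. Its log2 fold change was 0.05 ± 0.24 at 35 against 11.8 mM (95% interval -0.44 to 0.54) and -0.001 ± 0.24 at 20 against 11.8 mM (-0.49 to 0.49). Its interval at 35 mM overlapped that of Idh2, and the difference between the genes was not tested.

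The subunits of the NAD-dependent complex did not pass either. Idh3a, the catalytic alpha subunit, stood at 9.86, 8.80 and 5.83 CPM at 11.8 mM, at 10.8, 9.35 and 9.59 CPM at 20 mM, and at 10.2, 9.58 and 12.2 CPM at 35 mM. Replicate 3 at 11.8 mM was the lowest library and the other 8 lay between 8.80 and 12.2 CPM. Its log2 fold change at 35 against 11.8 mM was 0.38 ± 0.26 (95% interval -0.15 to 0.90), with 20 to 43 counts behind each value. Idh3b, the beta subunit (chromosome 2, 130279309 to 130284547), stood at 154, 144 and 171 CPM at 11.8 mM, at 165, 159 and 156 CPM at 20 mM, and at 144, 164 and 147 CPM at 35 mM. With 518 to 628 counts a library it was among the genes measured most precisely here, and its log2 fold change of -0.04 ± 0.13 at 35 mM had an interval of -0.30 to 0.22. The end of the Idh3b transcript, where tags fall, overlaps an exon of Nop56 on the opposite strand, so its count is uncertain where the counting could not separate strands. Idh3g, the gamma subunit, stood at 18.1, 23.8 and 33.5 CPM at 11.8 mM, at 36.0, 24.3 and 23.4 CPM at 20 mM, and at 26.0, 25.0 and 28.1 CPM at 35 mM. Its libraries at 35 mM lay inside the range of those at 11.8 mM (log2 fold change 0.07 ± 0.20).

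The ratio of Idh2 to another isocitrate dehydrogenase within a library does not depend on library scaling. Idh2 counts came to 0.201 to 0.294 times those of Idh3b at 11.8 mM, 0.140 to 0.195 times at 20 mM and 0.147 to 0.158 times at 35 mM. The ratio was thus lower in all 6 libraries of the raised concentrations than in any library at 11.8 mM. At 35 mM the ratios to Idh3a and to Idh3g also lay below those at 11.8 mM in all 3 libraries, whereas the ratios to Idh1 overlapped, with 1.76 to 3.33 at 11.8 mM and 1.05 to 2.24 at 35 mM. An exact permutation test of 3 against 3 libraries cannot give a two-sided p under 0.1, and these ratios were chosen after the values of Idh2 were known, so no test is given.

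Me1, the cytosolic NADP-dependent malic enzyme (chromosome 9, 86581371 to 86695953), stood at 138, 138 and 133 CPM at 11.8 mM, at 132, 129 and 133 CPM at 20 mM, and at 138, 169 and 149 CPM at 35 mM. The 6 libraries at 11.8 and 20 mM lay within 129 to 138 CPM, and replicates 2 and 3 at 35 mM lay above them. The log2 fold change was 0.16 ± 0.13 at 35 against 11.8 mM (95% interval -0.10 to 0.42; adjusted p = 0.745 by edgeR) and 0.21 ± 0.13 at 35 against 20 mM (-0.05 to 0.47; adjusted p = 0.932 by edgeR). The sub-libraries of single samples differed more for Me1 than counting noise gives, from 102 to 204 CPM over all of them, with a chi-square statistic of 86.5 on 18 degrees of freedom. An exon of Me1 overlaps an antisense gene.

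Me2 and Me3, the malic enzymes of mitochondria, gave few counts, 9 to 25 a library for Me2 and 12 to 29 for Me3. Me2 uses NAD or NADP and stood at 3.73, 5.79 and 3.50 CPM at 11.8 mM, at 2.77, 5.05 and 4.79 CPM at 20 mM, and at 6.44, 2.90 and 6.25 CPM at 35 mM. The lowest and the highest library at 35 mM nearly span the whole range of the gene. Counting error alone is wide at this depth. The 10 counts of 35 mM replicate 2 have an exact (Clopper-Pearson) 95% interval of 1.33 to 5.09 CPM before TMM scaling. That interval covers the counting error of reads only. Me3, which uses NADP, stood at 6.66, 5.56 and 3.50 CPM at 11.8 mM, at 8.01, 7.33 and 5.64 CPM at 20 mM, and at 4.83, 6.39 and 5.68 CPM at 35 mM. The log2 fold changes at 35 against 11.8 mM were 0.25 ± 0.36 for Me2 (95% interval -0.50 to 0.99) and 0.09 ± 0.32 for Me3 (-0.56 to 0.74). Exons of Me3 overlap an antisense gene.

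Pc, pyruvate carboxylase (chromosome 19, 4510472 to 4621752), stood at 27.7, 33.1 and 29.1 CPM at 11.8 mM, at 16.6, 26.5 and 29.0 CPM at 20 mM, and at 26.3, 27.9 and 18.7 CPM at 35 mM. Replicate 1 at 20 mM and replicate 3 at 35 mM were low, and the other 7 libraries lay between 26.3 and 33.1 CPM. The log2 fold changes were -0.30 ± 0.20 at 35 mM (95% interval -0.71 to 0.10; adjusted p = 0.649 by edgeR) and -0.31 ± 0.20 at 20 mM (-0.71 to 0.09; adjusted p = 0.735 by edgeR), each against 11.8 mM. The direction is that of Idh2, but the spread among libraries was as large as the difference.

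G6pdx, which encodes the first enzyme of the pentose phosphate pathway (chromosome X, 74409483 to 74429194), stood at 40.2, 40.0 and 31.5 CPM at 11.8 mM, at 52.0, 34.6 and 33.6 CPM at 20 mM, and at 46.7, 45.3 and 50.8 CPM at 35 mM. All 3 libraries at 35 mM lay above all 3 at 11.8 mM, a comparison where the libraries of 14.9% of all genes tested did not overlap. The highest of the 9 was replicate 1 at 20 mM. The log2 fold change at 35 against 11.8 mM was 0.35 ± 0.17 (95% interval 0.01 to 0.69), with an unadjusted p of 0.0456 and an adjusted p of 0.465 by edgeR. It was 0.10 ± 0.17 at 20 against 11.8 mM. Over the 21 alternatives the value at 35 mM ranged from 0.09 to 0.69 and was called in 0. Exons of G6pdx overlap Ikbkg on the opposite strand.

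**Figure D3:**
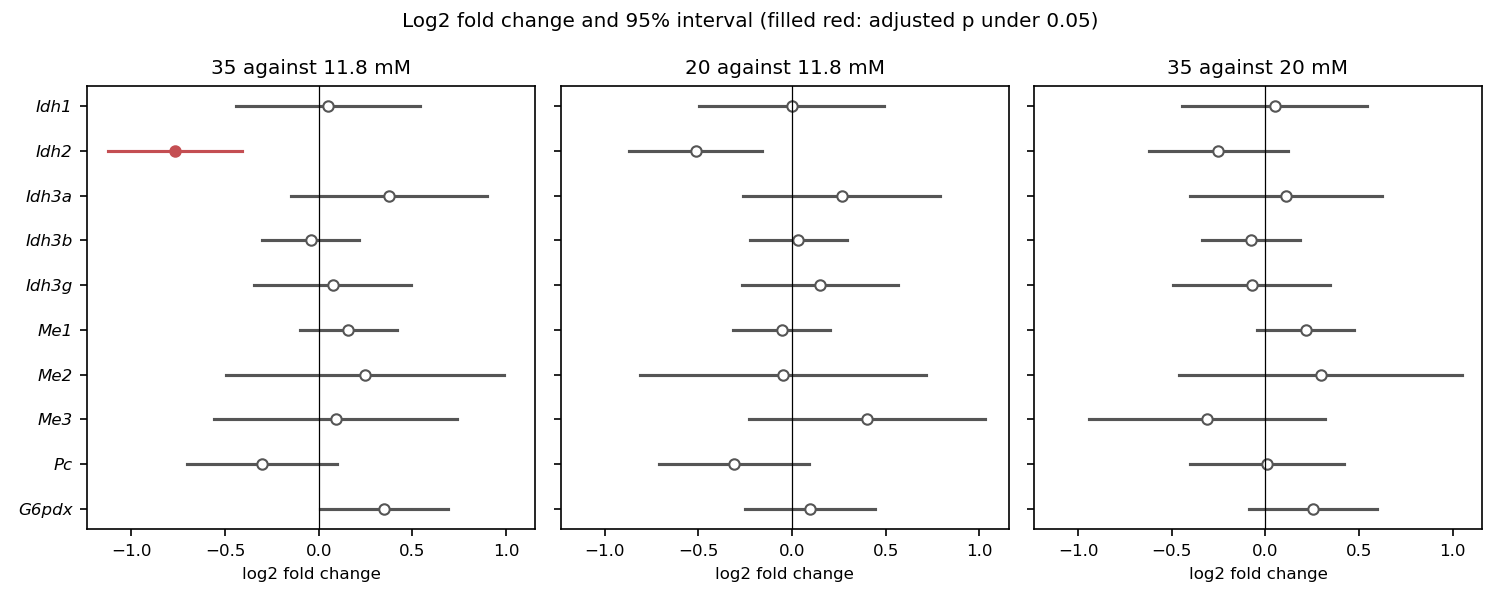
Log2 fold change of each of the 10 genes with its 95% interval (horizontal axis) in the 3 comparisons. Idh2 at 35 against 11.8 mM, at -0.77, is the single filled red point (adjusted p under 0.05), and the interval of Me2 is the widest at 35 against 11.8 mM, from -0.50 to 0.99.

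Read as a group, the 10 genes did not move one way. At 35 against 11.8 mM 7 had a positive and 3 a negative log2 fold change, with a median of 0.08 against -0.003 over all genes tested. Of the 10, 1 was called (Idh2, which fell), against 0.863% of all genes called in either direction. An unadjusted p under 0.05 by edgeR was found for 2 of the 10 (Idh2 and G6pdx), against 10.5% of all genes. Their libraries did not overlap for 2 genes, Idh2 and G6pdx, and for 14.9% of all genes. At 20 against 11.8 mM 5 were positive and 5 negative (median 0.02), and 0 were called, against 0.185% of all genes. At an unadjusted p under 0.05 the count was 1, Idh2, by edgeR, against 7.97% of all genes, and DESeq2 called 0 as well. The libraries did not overlap for Idh2 and Me1, against 12.8% of all genes. At 35 against 20 mM 6 were positive and 4 negative (median 0.03) and 0 were called by edgeR or DESeq2, against 0.0308% of all genes, with 0 at an unadjusted p under 0.05 by edgeR, against 5.29%. There the libraries did not overlap for Me1 alone, against 11.9% of all genes. The comparisons share libraries, so their values for a gene are not independent.

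Idh2 was the gene of the 10 with the smallest p in the test of any difference among the concentrations. Among 5324 genes whose mean reached 10 CPM, the 5 whose log2 CPM correlated most with that of Idh2 over the 9 libraries were Egr1 (Pearson's r = 0.934), Coprs (0.933), Esyt1 (0.922), Ap1s2 (0.913) and Gch1 (0.912). The libraries share their groups, depth and scaling, so the values are given as a description. Egr1, an immediate early transcription factor, stood at 28.9 ± 12.7, 18.7 ± 6.17 and 12.1 ± 0.900 CPM at 11.8, 20 and 35 mM. Coprs, a partner of the arginine methyltransferase PRMT5, stood at 31.6 ± 5.19, 21.7 ± 6.35 and 16.4 ± 1.96 CPM, and Gch1, which makes the first step of tetrahydrobiopterin synthesis, at 172 ± 14.3, 158 ± 5.80 and 152 ± 5.05 CPM (mean ± SD, n = 3 each). Of the 5, Coprs passed the test of any difference (adjusted p = 0.043 by edgeR) and the other 4 did not.

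The enzymes and carriers around the 10 genes were read from 5 lists with 71 different genes tested, of which 0 were called in any of the 3 comparisons by edgeR. At an unadjusted p under 0.05 there were 13 at 35 against 11.8 mM (18.3%, against 10.5% of all genes tested), 8 at 20 against 11.8 mM (11.3% against 7.97%) and 4 at 35 against 20 mM (5.63% against 5.29%). The genes named below are those with the smallest p of their list.

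Of 24 genes of the citric acid cycle and pyruvate dehydrogenase, 14 were positive and 10 negative at 35 mM against 11.8 mM, with a median log2 fold change of 0.12. Pdk3, a kinase that switches off pyruvate dehydrogenase, stood at 7.88 ± 2.87 CPM at 11.8 mM and 12.5 ± 1.52 CPM at 35 mM (log2 fold change 0.65 ± 0.27; adjusted p = 0.387 by edgeR). Pdhb, the beta subunit of the first enzyme of pyruvate dehydrogenase, had 0.31 ± 0.14 at 35 mM and 0.35 ± 0.14 at 20 mM. Fh1, fumarase, stood at 27.3 ± 4.42, 36.5 ± 1.85 and 34.6 ± 4.93 CPM at 11.8, 20 and 35 mM (0.43 ± 0.17 at 20 mM; adjusted p = 0.469 by edgeR). Sdhd went the other way, with -0.69 ± 0.34 at 35 against 11.8 mM and -0.53 ± 0.35 at 35 against 20 mM. None of these values passed the test.

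Of 16 pyruvate-cycling partners, which carry or convert pyruvate, malate and citrate between mitochondria and cytosol, 13 were positive at 35 mM against 11.8 mM and 7 at 20 mM, with medians of 0.09 and -0.03. Pklr, the liver-type pyruvate kinase and a target of ChREBP, stood at 4.82 ± 0.643, 4.05 ± 0.977 and 8.69 ± 3.14 CPM at 11.8, 20 and 35 mM. Its log2 fold change was 0.83 ± 0.32 at 35 against 11.8 mM (adjusted p = 0.308 by edgeR) and 1.08 ± 0.33 at 35 against 20 mM (adjusted p = 0.817 by edgeR). Mdh1, the cytosolic malate dehydrogenase, which makes the malate used by ME1, stood at 334 ± 37.4, 457 ± 39.6 and 403 ± 29.1 CPM (0.45 ± 0.13 at 20 against 11.8 mM; adjusted p = 0.2 by edgeR). Pkm, the main pyruvate kinase of islets, had 0.38 ± 0.15 at 35 against 20 mM.

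Beyond G6pdx, 7 of 9 pentose phosphate genes were negative at 35 against 11.8 mM, with a median of -0.14. Prps2 and Prps1, which make phosphoribosyl pyrophosphate from the pathway's product, had log2 fold changes of -0.67 ± 0.30 and -0.31 ± 0.14 (adjusted p = 0.404 and 0.436 by edgeR). Of 8 other genes of NADPH supply tested, 3 were positive and 5 negative at 35 mM (median -0.03, and -0.17 to 0.10 when 1 library was left out). Aldh1l2, a mitochondrial folate enzyme that makes NADPH, stood at 31.1 ± 4.80, 29.7 ± 4.80 and 41.0 ± 5.74 CPM (0.40 ± 0.17 at 35 against 11.8 mM). Nnt, the transhydrogenase of the inner mitochondrial membrane, had -0.33 ± 0.18 at 35 against 20 mM. Of 14 genes of redox control linked to NADPH, not all of which encode enzymes that use it, 9 were positive at 35 mM (median 0.04). Txn2, the mitochondrial thioredoxin, stood at 24.5 ± 3.01, 31.6 ± 3.07 and 34.2 ± 3.82 CPM (0.48 ± 0.17 at 35 mM; adjusted p = 0.261 by edgeR), and Glrx5, a mitochondrial glutaredoxin of iron-sulfur cluster assembly, at 112 ± 15.0, 90.3 ± 8.12 and 89.1 ± 9.16 CPM (-0.34 ± 0.14; adjusted p = 0.36 by edgeR). None passed the test.

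**Figure D4:**
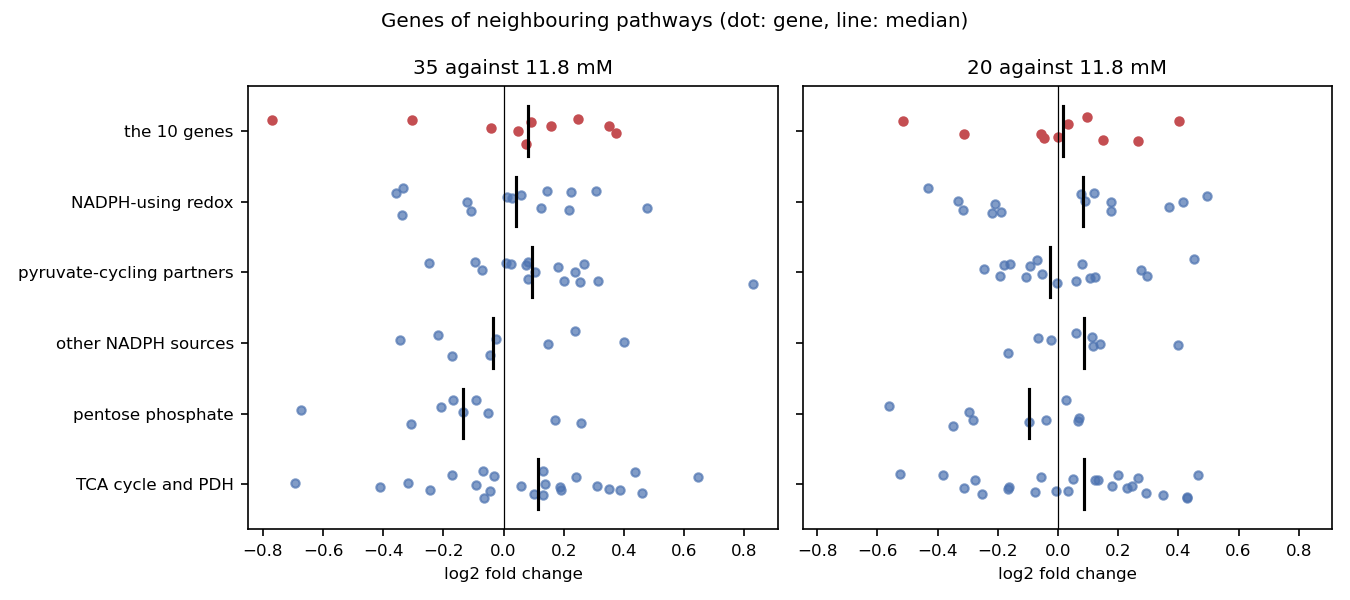
Log2 fold changes (horizontal axis) at 35 and at 20 against 11.8 mM for the genes of 5 neighbouring pathways and, in red, the 10 genes; dots are genes and lines are medians, with a small vertical scatter for sight. The medians at 35 mM lie between -0.14 and 0.12, and Idh2, at -0.77, is the lowest of all dots at that concentration.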

How the data were processed

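RNA of islets was made into libraries with CEL-Seq2, which tags transcript 3' ends, from 3 ng of RNA, per the labels' protocols. The deposited values are counts of reads for each gene. The submitters' processing notes list cutadapt, TopHat, HTSeq and DESeq2, with the build GRCm38.p4. Tool versions, annotation and strand setting are not stated there. Counts were not collapsed by UMI: 16 genes exceeded the 4096 possible UMIs. The counts are thus of reads and not of molecules, and intervals drawn from them may understate the counting error of molecules. CPM values are not divided by length and are not compared between genes.

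The 27 sub-libraries, 3 a sample, were tied to samples by the deposited sample sheet and summed. A further 30 per-sample columns carry names that match no label and were left unused. Spike-ins (92) and summary lines (5, with 19.6% to 29.9% of reads) were left out. Counts were fitted in R 4.3.3 with edgeR 4.0.16: TMM, filterByExpr, a mean for each concentration over 9 libraries (6 residual degrees of freedom), the robust quasi-likelihood test and Benjamini-Hochberg adjustment over 9739 genes, called under 0.05. The method was tested on simulated data. Alternatives were DESeq2 size factors, other filters, the DESeq2 1.42.0 test, removal of the 20 most abundant genes, a replicate block, each library left out, pairs of concentrations alone and single sub-libraries. Removal of 2 sub-libraries and an acinar covariate were chosen after seeing the data. The 10 genes and the lists were chosen with earlier results of these data known. All 10 are named, with the 2 genes of smallest p in each list and comparison (only some are printed), and the 5 genes most correlated with the member of smallest p.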

Additional observations from a re-analysis of the deposited data

How the results depend on the processing

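Of 602 fold changes of the 10 genes under alternatives, 545 kept their direction and their side of the threshold, 8 lost the call (all Idh2 at 35 against 11.8 mM) and 49 changed sign, none of them called; the cause was not tested. The count of the 10 genes called at 35 against 11.8 mM was 1, and 0 with any 1 sub-library alone. In the test of any concentration it was 0, and 1 without the expression filter or with 10 CPM in 3 libraries. Leaving out 1 library gave 0 to 1 in both. Without the expression filter 148, 51 and 126 genes were called at 35 against 11.8 mM, 20 against 11.8 mM and for any concentration, DESeq2 called 52 at 20 against 11.8 mM, and the fit of those 2 concentrations alone called 11. With sub-library 1, 2 or 3 alone the counts were 12, 42 and 39 at 35 against 11.8 mM, 2 and 8 (sub-libraries 1 and 2) at 20 against 11.8 mM, 1 each at 35 against 20 mM, and 8, 29 and 32 for any concentration, with fewer genes tested. The acinar covariate gave 11 at 20 against 11.8 mM and 7 at 35 against 20 mM. Leaving out 1 library gave 41 to 138, 7 to 35, 1 to 7 and 34 to 75 in the order of the 3 comparisons and any concentration. Counts moved by over 1.5 times at 35 against 11.8 mM without 11.8 mM replicate 1 (138) or 3 (47) or 35 mM replicate 1 (41) or 2 (54), at 20 against 11.8 mM without 11.8 mM replicate 2 (35) or 20 mM replicate 1 (7) or 3 (9), at 35 against 20 mM without 20 mM replicate 3 (1) or 35 mM replicate 3 (7), and for any concentration without 11.8 mM replicate 3 (34) or 35 mM replicate 1 (37) or 2 (36).

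Sign changes by sub-library, at 35 against 11.8 mM, were Idh1 (-0.39 and -0.037), Idh3b (0.036), Idh3g (-0.23), Me1 (-0.023), Me3 (-0.21) and Pc (0.013). At 20 against 11.8 mM they were Idh1 (0.21), Idh3b (-0.13), Idh3g (-0.080), Me1 (0.10), Pc (0.14) and G6pdx (-0.017), with 0.000464 for Idh1 and -0.019 for G6pdx under the acinar covariate. At 35 against 20 mM they were Idh1 (-0.18 and -0.25), Idh3a (-0.032), Idh3g (0.20), Pc (-0.072 and -0.12) and G6pdx (-0.16). Leaving out 1 library, at 35 against 11.8 mM, gave Idh1 -0.13 to 0.28, Idh3b -0.10 to 0.020, Idh3g -0.11 to 0.32 and Me3 -0.12 to 0.28. At 20 against 11.8 mM it gave Idh1 -0.25 to 0.15, Idh3b -0.021 to 0.10, Idh3g -0.075 to 0.39, Me2 -0.20 to 0.23 and G6pdx -0.13 to 0.21. At 35 against 20 mM it gave Idh1 -0.12 to 0.30, Idh3g -0.18 to 0.14 and Pc -0.19 to 0.16.

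Of 270 medians of the pathway lists under alternatives, 11 moved by more than the spread. For pyruvate-cycling partners, leaving out 1 library gave 0.026 to 0.17 at 35 against 11.8 mM and -0.089 to 0.076 at 20 against 11.8 mM. At 35 against 11.8 mM it gave 0.023 to 0.13 for the citric acid cycle and -0.18 to -0.0040 for pentose phosphate. It gave -0.17 to 0.10 there for other NADPH supply and -0.030 to 0.095 for redox control linked to NADPH. The lowest for the citric acid cycle was without 11.8 mM replicate 2. The median for other NADPH supply was positive without 11.8 mM replicate 2 (0.10), 35 mM replicate 1 (0.097) or 35 mM replicate 3 (0.066), and lowest without 35 mM replicate 2 (-0.17).

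Libraries with the same replicate number did not deviate together (correlations of deviations from -0.13 to 0.05). Whether the numbers pair samples is not settled by this, because counting noise in genes of few counts also keeps such correlations small. With the replicate block, Idh2 stood at -0.76 on the log2 scale at 35 against 11.8 mM (adjusted p = 0.0266 by edgeR), and the count of the 10 genes called stayed 1. Counts of 9 to 43 a library limit Me2, Me3 and Idh3a.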

Other observations

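The sub-libraries of a sample differed by more than counting noise for some of the 10 genes and not for others. Summed over the samples, the chi-square statistic on 18 degrees of freedom was 86.5 for Me1, 43.9 for Idh3b, 36.9 for Pc, 35.7 for Idh1 and 29.3 for G6pdx. It was 9.08 for Me2, 11.8 for Idh3a, 14.3 for Idh3g, 15.5 for Me3 and 17.5 for Idh2. In 20 mM replicate 1, G6pdx, Idh1, Idh3g and Me3 were at their highest of all 9 libraries, and Pc and Me2 at their lowest.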
